A study of Homo sapiens with 8 samples.

Results

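Members of the tumour necrosis factor (TNF) superfamily were followed in MDA-MB-231, an established human cell line derived from triple-negative breast cancer, in which siRNA was used to deplete ADAR1, an adenosine-to-inosine editing enzyme of double-stranded RNA. A control siRNA served as the reference. Each siRNA was read out by Input RNA-seq of longer RNA fragments and by Ribo-seq of ribosome-protected fragments, with 2 libraries in each of the 4 groups and 8 libraries in all. The 4 groups are control siRNA Input, ADAR1 siRNA Input, control siRNA Ribo-seq and ADAR1 siRNA Ribo-seq, all from the same line. The labels do not state the siRNA sequences or the interval before harvest. The 10 members, of 19892 genes in the deposited table, are the ligand TNFSF15 and the receptors TNFRSF21, TNFRSF1A, TNFRSF10A, TNFRSF10B, TNFRSF10D, TNFRSF11B, TNFRSF12A, FAS and LTBR. The set was selected on measured values: it was picked around TNFSF15 and TNFRSF21 because their RNA and footprint levels were higher with ADAR1 siRNA, and the other 8 belong to the same family. The changes of those 2 genes are therefore given as a description, with no test.

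TNF superfamily ligands are mostly membrane-anchored trimers that can be shed, and each binds one or a few receptors of the matching receptor family. Receptors with a cytoplasmic death domain, among them TNFRSF1A, FAS, TNFRSF10A, TNFRSF10B and TNFRSF21, can recruit adaptors that lead to caspases or to NF-kB. Receptors without a death domain, such as LTBR and TNFRSF12A, bind TRAF adaptors, and decoys such as TNFRSF10D and the secreted TNFRSF11B take up ligand without an apoptotic signal. Breast cancer lines are known to differ in their response to TRAIL, the ligand of the TNFRSF10 receptors.

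Library depth, the check of the target and the cell markers are given first. Total estimated counts ran from 15732757 to 17153716 in Input and from 10492223 to 14875465 in Ribo-seq. Nothing in the labels says that the replicates came from separate cultures, so each p-value reflects the variation among libraries, part of which may be technical. ADAR, the targeted gene, held 13.7% and 28.3% of the control mean TPM in the ADAR1 siRNA Input replicates 1 and 2, and 7.87% and 42.7% in the Ribo-seq replicates. The ADAR1 siRNA replicates lay further apart than the control replicates (SD of log2 differences between replicates over genes of 0.262 against 0.116 in Input and 0.377 against 0.263 in Ribo-seq). All 4 markers listed for the line were expressed, with VIM, the gene of the mesenchymal filament vimentin, at 4465 ± 3.19 TPM in control Input (mean ± SD, n = 2). Of the 5 genes listed as low or absent, ERBB2 stood at 33.3 ± 3.07 TPM in control Input, and their summed level lay between 44.8 and 50.7 TPM across the Input libraries. PTPRC, the gene of the leukocyte marker CD45, stood below 1 TPM in all libraries, and no listed T or B cell marker reached 1 TPM in Input. The T cell marker CD3D reached 1.03 TPM in ADAR1 siRNA Ribo-seq, where CD3E and CD2 were at 0. Of the 3 listed fibroblast markers 1 reached 1 TPM in Input. One of them, PDGFRB, rose in footprints (log2 fold change 1.22 ± 0.28, edgeR adjusted p = 0.0485), where 3.54% of all genes tested were called. The 3 listed myeloid markers CD14, CSF1R and LYZ all reached 1 TPM in control Input, and 2 of them did with ADAR1 siRNA. Their summed level was 6.1 to 7.2 TPM in control Input and 4.7 to 6.3 TPM in ADAR1 siRNA Input. All libraries are from the same cell line, and the source of this low level was not tested. Endothelium is a known source of TNFSF15, and of its 4 listed markers only PECAM1 reached 1 TPM in Input. The summed endothelial level was 2.85 to 4.44 TPM in control Input and 2.74 to 3.22 TPM with ADAR1 siRNA, and its relation to the TNFSF15 values was not tested.

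In control cells the members spanned a wide range of RNA levels. On the TPM scale, a level per transcript length and library, the control Input means ran from TNFRSF12A at 204.7 ± 14.2, through TNFRSF1A at 178 ± 3.43, TNFRSF21 at 165.5 ± 3.50, LTBR at 127 ± 0.0990, TNFRSF10B at 102 ± 1.93, TNFRSF10D at 56.3 ± 1.80 and TNFRSF10A at 38.2 ± 0.946, down to FAS at 5.79 ± 0.646, TNFSF15 at 5.09 ± 0.0643 and TNFRSF11B at 2.96 ± 0.204 (mean ± SD, n = 2 libraries). In this order the values of no neighbouring pair overlapped. The order among control footprints was different. TNFRSF12A stood at 496 ± 22.0 TPM, followed by TNFRSF10B at 54.3 ± 3.77, TNFRSF1A at 43.8 ± 1.57 and TNFRSF10D at 40.2 ± 1.81. LTBR (28.9 ± 0.544), TNFRSF21 (26.7 ± 1.11) and TNFRSF10A (25.3 ± 1.91) came next, and the libraries of TNFRSF21 and TNFRSF10A overlapped. FAS (6.50 ± 1.07), TNFSF15 (4.69 ± 1.53) and TNFRSF11B (3.14 ± 1.08) were lowest and each overlapped its neighbour.

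The authors' deposited table gives a translational efficiency, the ratio of Ribo-seq TPM to Input TPM, for each replicate number. Ranked among 9496 genes with a mean of at least 50 counts in each assay of the controls, TNFRSF12A, a small receptor for the ligand TWEAK, stood high in the authors' deposited table, at 2.47 and 2.38 in the control replicates and at the percentile 94.9. FAS (1.08 and 1.16, percentile 83.8) and TNFSF15 (0.703 and 1.14, percentile 79.1) also stood above the median of 0.411 in the authors' deposited table. The 3 TRAIL receptors followed, with TNFRSF10D at percentile 71.3, TNFRSF10A at 68.8 and TNFRSF10B at 61.0. Low values were those of TNFRSF21 in the authors' deposited table (0.169 and 0.154, percentile 16.5), LTBR (0.225 and 0.231, percentile 27.1) and TNFRSF1A (0.248 and 0.243, percentile 29.7). TNFRSF11B was too low in Input to be ranked.

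**Figure D1:**
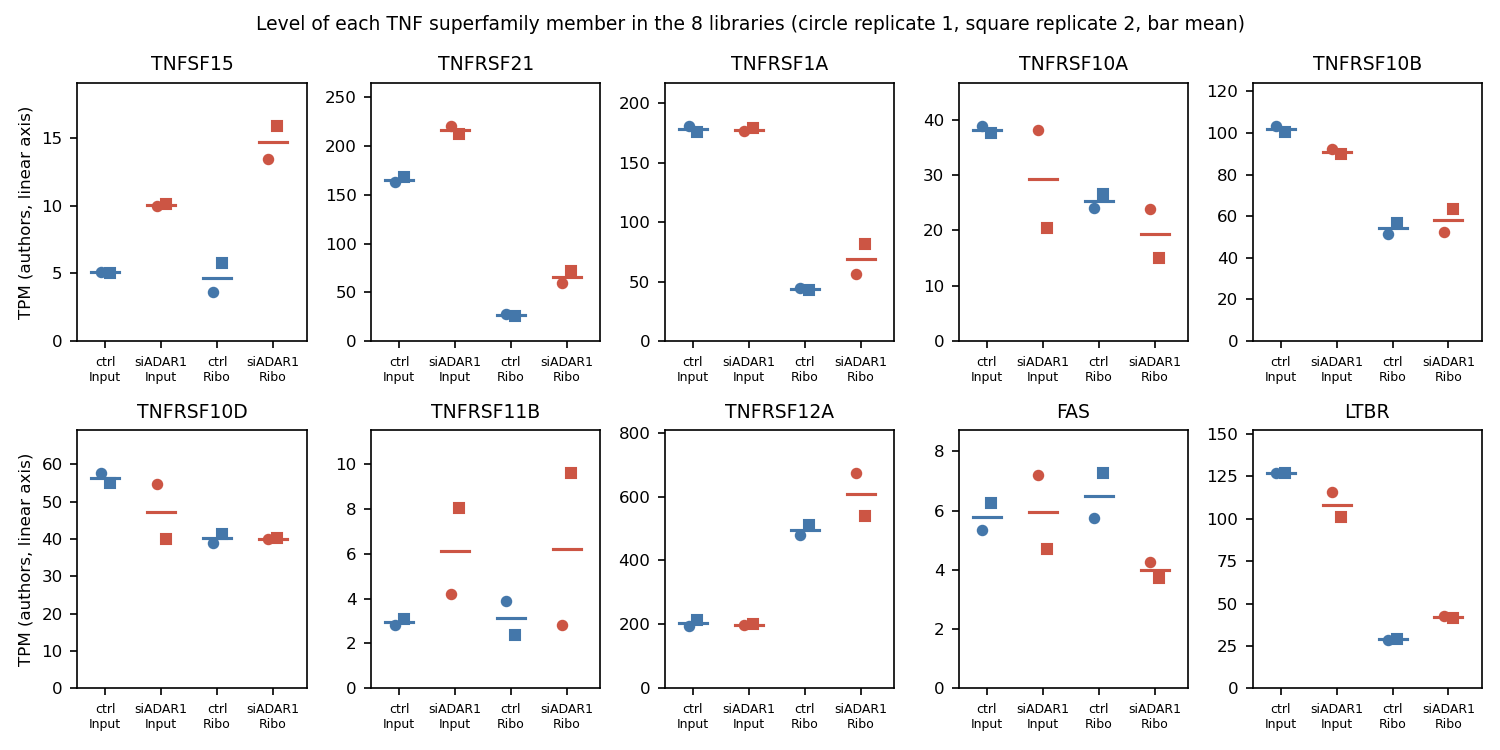
TPM of each of the 10 members in the 8 libraries, on linear axes from 0, for control siRNA (blue) and ADAR1 siRNA (red) in Input and Ribo-seq. Circles are replicate 1, squares replicate 2 and bars the mean of 2; TNFSF15 and TNFRSF21 are higher with ADAR1 siRNA in both assays, TNFRSF1A and LTBR in Ribo-seq but not in Input.

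TNFSF15, the ligand also called TL1A, which binds the receptor TNFRSF25, was higher with ADAR1 siRNA in both assays (NCBI gene 9966; GRCh38.p14 chromosome 9, 114784635 to 114806039). Input libraries held 5.14 and 5.04 TPM with control siRNA and 9.96 and 10.1 TPM with ADAR1 siRNA. Ribo-seq libraries held 3.61 and 5.77 TPM with control siRNA and 13.5 and 15.9 TPM with ADAR1 siRNA. Both ADAR1 siRNA libraries of each assay lay above both controls, by an edgeR log2 fold change of 0.96 ± 0.11 (SE) in RNA and 1.75 ± 0.25 in footprints. The counts behind these values ran from 219 in a control to 472 in an ADAR1 siRNA library in Input, and from 50 to 272 in Ribo-seq. Its receptor TNFRSF25 had 11 and 8 Input counts with control siRNA and 4 in each ADAR1 siRNA library, too few to be tested. In the authors' deposited table the translational efficiency of TNFSF15 was 0.703 and 1.14 with control siRNA and 1.35 and 1.57 with ADAR1 siRNA.

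TNFRSF21, or death receptor 6, a receptor with a death domain best known from neurons and T cells, was much more abundant (NCBI gene 27242; chromosome 6, 47231532 to 47309905). Its Input level was 163 and 168 TPM with control siRNA and 220.6 and 212 TPM with ADAR1 siRNA. Its footprints stood at 27.5 and 26.0 TPM against 59.9 and 71.9 TPM. The groups did not overlap in either assay, and the difference was larger in footprints (log2 fold change 1.39 ± 0.15) than in RNA (0.45 ± 0.06). With ADAR1 siRNA TNFRSF21 moved from the third to the first place among the members in Input. Its translational efficiency in the authors' deposited table was 0.169 and 0.154 with control siRNA and 0.272 and 0.338 with ADAR1 siRNA.

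Upstream sequence is shown for these 2 genes, which moved together in RNA, and for TNFRSF1A and LTBR, whose footprints were higher without more RNA, so that the pairs can be compared. RefSeq promoter entries (GRCh38.p14) were found for 5 of the 10 members, and each line gives the 250 bases before the listed transcript start, 5′ to 3′ on the gene's strand. Capitals mark matches on either strand to the NF-kB motif GGGNNNNNCC or the AP-1 motif TGANTCA; the interferon-response motif GAAANNGAAA had no match in the 4 windows.
TNFSF15 (chr9:114792531-114792780, minus strand): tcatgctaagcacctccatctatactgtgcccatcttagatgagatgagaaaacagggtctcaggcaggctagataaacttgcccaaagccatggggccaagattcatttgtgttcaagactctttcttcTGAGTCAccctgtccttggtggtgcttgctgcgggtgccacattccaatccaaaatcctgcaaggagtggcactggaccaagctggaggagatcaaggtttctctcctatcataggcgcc
TNFRSF21 (chr6:47309906-47310155, minus strand): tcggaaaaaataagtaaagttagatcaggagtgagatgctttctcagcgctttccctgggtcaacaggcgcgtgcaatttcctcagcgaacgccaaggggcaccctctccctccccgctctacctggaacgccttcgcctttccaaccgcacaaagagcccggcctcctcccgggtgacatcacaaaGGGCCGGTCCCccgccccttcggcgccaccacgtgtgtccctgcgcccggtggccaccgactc
TNFRSF1A (chr12:6342077-6342326, minus strand): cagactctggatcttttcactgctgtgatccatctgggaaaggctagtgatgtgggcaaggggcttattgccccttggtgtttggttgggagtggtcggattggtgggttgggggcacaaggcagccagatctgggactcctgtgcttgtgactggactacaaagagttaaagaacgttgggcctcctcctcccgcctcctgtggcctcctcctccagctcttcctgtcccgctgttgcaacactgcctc
LTBR (chr12:6383912-6384161, plus strand): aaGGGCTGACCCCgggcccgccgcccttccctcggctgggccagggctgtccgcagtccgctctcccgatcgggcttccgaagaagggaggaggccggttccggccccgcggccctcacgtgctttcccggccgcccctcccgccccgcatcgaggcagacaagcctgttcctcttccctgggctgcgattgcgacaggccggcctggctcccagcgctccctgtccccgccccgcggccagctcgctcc
The TNFSF15 and LTBR entries start inside the annotated gene, so they belong to a transcript that is not the longest annotated span. The TNFSF15 window held 1 AP-1 match and no NF-kB match, and the TNFRSF21 and LTBR windows each held NF-kB letters that match on both strands and overlap. The TNFRSF1A window held none of the 3 motifs. Of 35116 RefSeq windows of this length, 54.4% hold the NF-kB letters, 6.57% the AP-1 letters and 3.02% the interferon-response letters. The G+C content was 62.0% for TNFRSF21, 56.8% for TNFRSF1A and 74.8% for LTBR and lowest for TNFSF15, against a median of 58.0% over all windows. A match describes the letters and no binding was measured.

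Among the other death-domain receptors, TNFRSF1A, the main receptor of TNF, gained footprints without gaining RNA. Input libraries held 181 and 176 TPM with control siRNA and 176 and 179 TPM with ADAR1 siRNA, so the groups overlapped. Ribo-seq libraries held 44.9 and 42.7 TPM with control siRNA and 56.7 and 81.9 TPM with ADAR1 siRNA, with both ADAR1 siRNA libraries above both controls. By the quasi-likelihood test of edgeR, adjusted over all genes by the Benjamini-Hochberg method, footprints of TNFRSF1A rose by a log2 fold change of 0.70 ± 0.16 (SE), with an adjusted p of 0.0460. Its RNA value was -0.02 ± 0.07 (edgeR adjusted p = 0.866). The call rests on both control libraries: the edgeR adjusted p was 0.182 without control Ribo-seq replicate 1 and 0.456 without replicate 2, at log2 fold changes of 0.73 and 0.66.

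FAS, the receptor of FAS ligand and the prototype of the death receptors, had few reads, 98 to 124 estimated counts per Input library and 60 to 80 per Ribo-seq library. Its Input TPM was 5.33 and 6.24 with control siRNA and 7.21 and 4.70 with ADAR1 siRNA, and the groups overlapped. Its footprints were 5.75 and 7.26 TPM with control siRNA and 4.28 and 3.72 TPM with ADAR1 siRNA. FAS was the member with the lowest footprint difference, with both ADAR1 siRNA libraries below both controls, but it did not pass the test (log2 fold change -0.61 ± 0.27, edgeR adjusted p = 0.211). The annotation places ACTA2 and FAS-AS1 over parts of FAS, and the labels do not state whether counting used strand, so reads of these genes may not be told apart.

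The TRAIL receptors TNFRSF10A and TNFRSF10B carry death domains, whereas TNFRSF10D has a truncated one and TNFRSF10C has none, and both of these act as decoys. TNFRSF10B, the most abundant, held 103 and 101 TPM in control Input and 92.1 and 90.03 TPM with ADAR1 siRNA. Its footprints were 51.6 and 56.9 TPM against 52.4 and 63.7 TPM. RNA libraries did not overlap and footprint libraries did, and neither difference passed (log2 fold change -0.18 ± 0.06 in RNA, edgeR adjusted p = 0.154, and 0.21 ± 0.14 in footprints, edgeR adjusted p = 0.413). With each Input library left out in turn, the RNA value stayed between -0.20 and -0.15. TNFRSF10B-AS1 and RHOBTB2 overlap TNFRSF10B in the annotation, with the same limit on strand as for FAS.

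TNFRSF10A separated the ADAR1 siRNA replicates from each other. Its Input level was 38.8 and 37.5 TPM with control siRNA, 38.1 TPM in ADAR1 siRNA replicate 1 and 20.4 TPM in replicate 2. Its footprints were 23.9 and 26.6 TPM with control siRNA, 23.8 TPM in ADAR1 siRNA replicate 1 and 14.9 TPM in replicate 2. Replicate 2 alone was clearly low, in both assays, and ADAR itself was less depleted in that replicate; the part of this in the result was not tested. The edgeR log2 fold change was -0.41 ± 0.24 in RNA (adjusted p = 0.324) and -0.27 ± 0.24 in footprints (adjusted p = 0.546). Without ADAR1 siRNA replicate 2 it was -0.06 in Input and 0.05 in Ribo-seq, and without replicate 1 it was -0.88 and -0.74. These fits leave 1 ADAR1 siRNA library, so only the size of the difference is given.

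The decoy TNFRSF10D had a similar but weaker pattern in Input, at 57.6 and 55.1 TPM with control siRNA and 54.6 and 40.0 TPM with ADAR1 siRNA. Its footprints were level, at 38.9 and 41.4 TPM against 39.9 and 40.3 TPM. The edgeR log2 fold change was -0.27 ± 0.12 in RNA (adjusted p = 0.225) and 0.09 ± 0.15 in footprints (adjusted p = 0.740). Without ADAR1 siRNA Input replicate 1 the RNA value was -0.47, and without replicate 2 it was -0.10. In footprints the log2 ratio of its mean TPM was below 0 and that of its TMM-scaled CPM was 0.10, so no direction can be given.

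Summed over TNFRSF10A, TNFRSF10B, TNFRSF10C and TNFRSF10D, TRAIL receptor RNA was 202.7 and 197 TPM with control siRNA and 187 and 154 TPM with ADAR1 siRNA. Decoys (TNFRSF10C and TNFRSF10D) made up 29.8% and 30.0% of this sum in control Input and 30.5% and 28.1% with ADAR1 siRNA. Among footprints their share was 35.4% and 34.5% with control siRNA and 35.1% and 34.8% with ADAR1 siRNA. The decoy share therefore differed between the assays by more than it differed between siRNAs. TNFRSF10A made up 13.3% of the sum in ADAR1 siRNA Input replicate 2 and 12.4% in Ribo-seq replicate 2, against 19.0% to 20.9% in the other 6 libraries. With 2 libraries a group, an exact two-sided permutation test of a single value cannot give a p under 0.333, so these shares have no test.

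**Figure D2:**
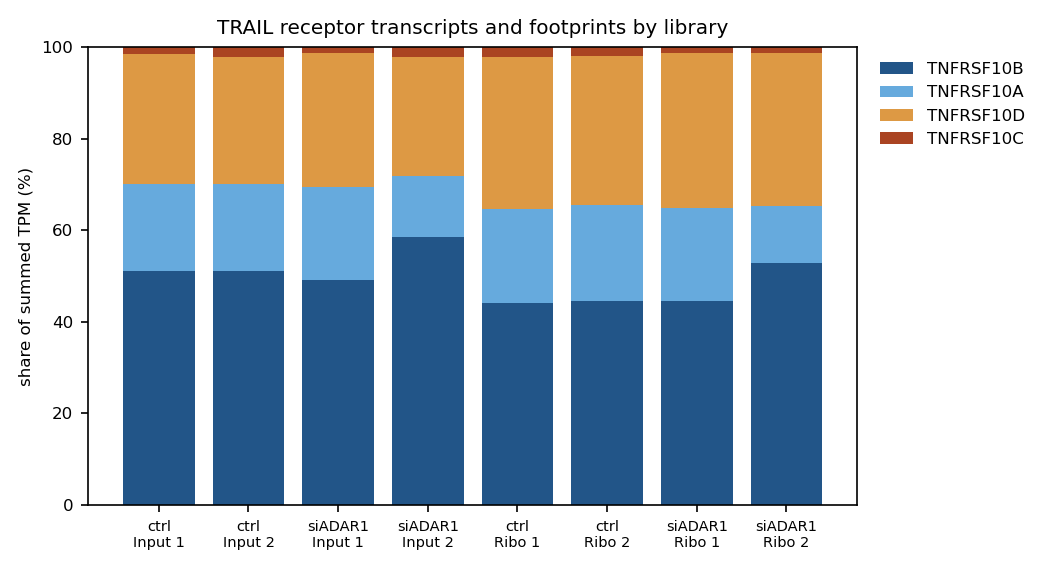
Share of the summed TRAIL receptor TPM (percent, axis from 0 to 100) taken by each of 4 receptors in the 8 libraries. The decoys TNFRSF10D and TNFRSF10C take 28.1% to 30.5% in Input and 34.5% to 35.4% in Ribo-seq, and the share of TNFRSF10A is lowest in both libraries of ADAR1 siRNA replicate 2.

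Of the receptors without a death domain, LTBR, the lymphotoxin beta receptor that signals to the alternative NF-kB pathway, had differences of opposite sign in the 2 assays. Input libraries held 127 TPM in both controls and 116 and 101 TPM with ADAR1 siRNA. Ribo-seq libraries held 28.5 and 29.3 TPM with control siRNA and 42.4 and 41.6 TPM with ADAR1 siRNA. All ADAR1 siRNA libraries were below the controls in Input and above them in Ribo-seq. By edgeR neither difference passed (log2 fold change -0.24 ± 0.07 in RNA, adjusted p = 0.116, and 0.64 ± 0.15 in footprints, adjusted p = 0.0504). The footprint value passed with DESeq2 (adjusted p = 0.0150) and with no filter on low counts (edgeR adjusted p = 0.00639). It did not pass with RLE scaling (edgeR adjusted p = 0.0525). When each library was left out in turn, the difference stayed between 0.55 and 0.68 in footprints and between -0.29 and -0.18 in RNA. SCNN1A overlaps LTBR in the annotation, with the same limit on strand as for FAS.

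TNFRSF12A, which binds TWEAK and is induced by growth factors, had the highest footprint level of the members with either siRNA. Its Input level was 195 and 215 TPM with control siRNA and 197 and 201 TPM with ADAR1 siRNA. Its footprints were 481 and 512 TPM against 673 and 540.3 TPM, with both ADAR1 siRNA libraries above the controls. The edgeR log2 fold change was -0.05 ± 0.08 in RNA (adjusted p = 0.716) and 0.40 ± 0.17 in footprints (adjusted p = 0.200). The footprint value rests on ADAR1 siRNA replicate 1: it was 0.57 without replicate 2 (edgeR adjusted p = 5.09e-05) and 0.14 without replicate 1 (0.470). It did not pass without either control library (0.626 and 0.737).

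TNFRSF11B, or osteoprotegerin, a secreted decoy for RANK ligand and TRAIL, was high in ADAR1 siRNA replicate 2 of both assays. Input libraries held 2.81 and 3.10 TPM with control siRNA and 4.18 and 8.04 TPM with ADAR1 siRNA, from 38 to 119 counts. Ribo-seq libraries held 3.90 and 2.38 TPM with control siRNA and 2.84 and 9.59 TPM with ADAR1 siRNA. The groups overlapped in Ribo-seq, and neither test passed (log2 fold change 1.04 ± 0.37 in RNA, edgeR adjusted p = 0.154, and 1.02 ± 0.45 in footprints, edgeR adjusted p = 0.204). Without ADAR1 siRNA replicate 2 the value was 0.44 in RNA and -0.03 in footprints. Without replicate 1 it was 1.46 and 1.60. The footprint value passed with no filter on low counts (edgeR adjusted p = 0.00206). It was 1.45 without control Ribo-seq replicate 1 and 0.70 without control replicate 2. TNFRSF10A and TNFRSF11B thus differed from the controls mainly in the same replicate, one lower and the other higher.

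Calls were counted over the 8 members not chosen for their rise, at an adjusted p under 0.05. In RNA 0 of the 8 passed by edgeR, against 0.253% of 12644 genes tested (0.0791% higher, 0.174% lower), and 3 had an unadjusted p under 0.05 (background 25.3%). DESeq2 called none of the 8 in RNA, but it gave FAS and TNFRSF11B no adjusted p. In footprints 1 of the 8 passed by edgeR, TNFRSF1A, against 3.54% of 12000 genes tested, and 4 had an unadjusted p under 0.05 (background 24.0%). TNFSF15 and TNFRSF21 are left out of these counts because the same values chose them. Over all genes 225 footprint calls were higher and 200 lower by edgeR, 211 and 259 with RLE scaling, and 379 and 585 by DESeq2. All 10 members passed the filter on low counts in all 3 fits. The median log2 fold change of the 10 members was -0.05 in RNA and 0.52 in footprints, against 0.00 and 0.05 over all genes tested; without the 2 chosen genes it was -0.12 and 0.30.

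On TMM-scaled CPM, ADAR1 siRNA libraries lay apart from the controls for 7 of 10 members in Input, 3 higher and 4 lower, where the background was 58.0% of all genes tested (27.9% higher, 30.1% lower). In Ribo-seq they lay apart for 8 of 10, 7 higher and 1 lower, where the background was 55.8% (29.8% higher, 26.0% lower). TNFSF15 and TNFRSF21, chosen for their rise, are among the higher members in both assays, so these counts are a description. Of the members not chosen, TNFRSF11B was higher in Input, and TNFRSF1A, TNFRSF10B, TNFRSF10D, TNFRSF12A and LTBR were higher in Ribo-seq. On the TPM scale the Ribo-seq counts were 5 higher and 2 lower. LTBR, TNFRSF10B and TNFRSF10D were lower in Input and higher in Ribo-seq with no overlap on TMM-scaled CPM, a combination seen in 7.66% of 11743 genes; on the TPM scale LTBR kept it and the other 2 overlapped in Ribo-seq.

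The change in translational efficiency was tested as the interaction of assay and siRNA over all 8 libraries. None of the 8 members not chosen for their rise passed by edgeR (background 0.0463% of 12953 genes), and 3 had an unadjusted p under 0.05 (background 22.7%). LTBR had a log2 difference of 0.90 ± 0.16 (edgeR adjusted p = 0.0534) and TNFRSF1A of 0.75 ± 0.17 (edgeR adjusted p = 0.0578). DESeq2 called both, with adjusted p-values of 0.000883 and 0.00562, and it called 997 of 16931 genes in all. With each library left out in turn, LTBR stayed between 0.788 and 0.997 and TNFRSF1A between 0.595 and 0.878. In the authors' deposited table LTBR went from 0.225 and 0.231 to 0.367 and 0.412, and TNFRSF1A from 0.248 and 0.243 to 0.322 and 0.459. TNFRSF21, described without a test, differed by 0.97 ± 0.15 and TNFSF15 by 0.81 ± 0.26. TNFRSF12A (0.48 ± 0.22), TNFRSF10B (0.41 ± 0.14) and TNFRSF10D (0.40 ± 0.19) did not pass, with edgeR adjusted p-values from 0.125 to 0.250. TNFRSF12A ranged from 0.20 to 0.71 when each library was left out in turn. TNFRSF10A (0.17 ± 0.40), TNFRSF11B (0.00 ± 0.47) and FAS (-0.54 ± 0.34) had the lowest values, with edgeR adjusted p-values of 0.834, 1.00 and 0.375. The median was 0.45 over the members, 0.40 without the 2 chosen genes and 0.09 over all genes tested.

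**Figure D3:**
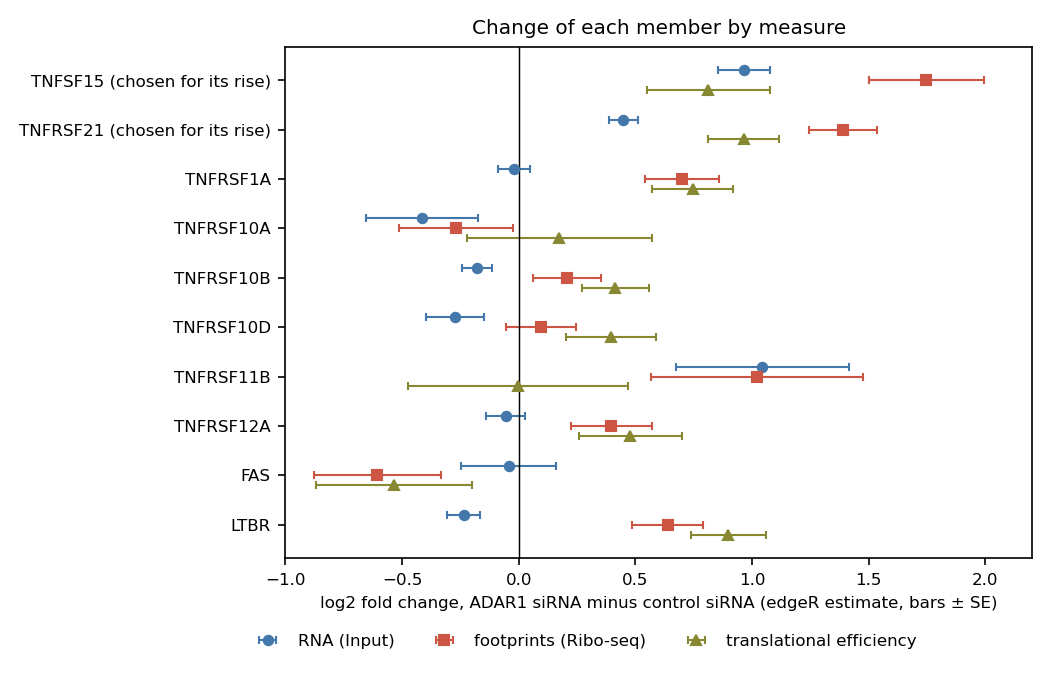
Log2 fold change of each member (ADAR1 siRNA minus control siRNA, edgeR estimate, bars ± SE) in RNA, footprints and translational efficiency. For LTBR the RNA value is -0.24 and the footprint value 0.64, and for FAS the footprint value is -0.61.

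The whole superfamily was examined from a list of 18 ligands and 29 receptors, 47 genes that were all in the table. In RNA 28 of them passed the filter on low counts, 26 of them other than TNFSF15 and TNFRSF21. Of these 26, 23 reached the filter's count minimum in both libraries of both groups, and LTB in the ADAR1 siRNA group only. By edgeR 0 of the 23 were called (background 0.253%). DESeq2 called none of the 26, but it gave some of them, among them TNFSF10, FAS and TNFRSF11B, no adjusted p. An unadjusted p under 0.05 was found by edgeR for 7 of the 26, LTB included (background 25.3%). Without TNFRSF21, the 18 receptors tested had a median log2 fold change of -0.25 in RNA, with 15 below 0, where 50.6% of all genes tested were above 0. None of the 18 was called by edgeR, and 5 had an unadjusted p under 0.05 (background 25.3%). In footprints 27 genes other than TNFSF15 and TNFRSF21 passed the filter. Of these, 5 reached the count minimum in both libraries of the ADAR1 siRNA group only (LTB, TNFSF4, TNFSF18, TNFRSF6B and TNFRSF18) and 2 in those of the control group only. They entered the test through a single group, which favours a difference in that direction, so they are left out of the count. Among the 20 that reached it in both groups, 17 were above 0, where 54.4% of all genes tested were, with a median log2 fold change of 0.36. By edgeR 2 of the 20 were called, TNFRSF1A and TNFSF10, both higher (background 1.88% higher, 1.67% lower). For translational efficiency 29 genes other than TNFSF15 and TNFRSF21 were tested, 20 of them above 0 (57.3% of all genes tested). The 29 still hold the genes left out of the footprint count, so the 20 are a description. Of those genes TNFSF4, TNFSF18, TNFRSF6B and TNFSF13 were above 0, and LTB, TNFRSF18 and TNFSF13B below. By edgeR 0 of the 29 were called (background 0.0463%) and 7, LTB included, had an unadjusted p under 0.05 (background 22.7%). DESeq2 called LTBR and TNFRSF1A, where it called 997 of 16931 genes in all.

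TNFSF10, which encodes the ligand TRAIL, was higher in both assays. Input libraries held 12.5 and 10.5 TPM with control siRNA and 20.3 and 17.8 TPM with ADAR1 siRNA. Ribo-seq libraries held 17.6 and 23.4 TPM against 37.9 and 44.6 TPM. Footprints rose by a log2 fold change of 1.03 ± 0.18 (edgeR adjusted p = 0.0336). The footprint call was lost without control Ribo-seq replicate 1. RNA did not pass (0.70 ± 0.15, edgeR adjusted p = 0.0796), and its value stayed between 0.58 and 0.83 with each Input library left out. TNFSF18, the ligand of GITR, was near the limit of detection in controls, with 8 and 3 footprint counts against 121 and 58 with ADAR1 siRNA. It passed the filter in footprints through the ADAR1 siRNA libraries alone, so the counts are given as a description. Its Input counts were 5 and 6 with control siRNA and 41 and 10 with ADAR1 siRNA and were too low to be tested.

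**Figure D4:**
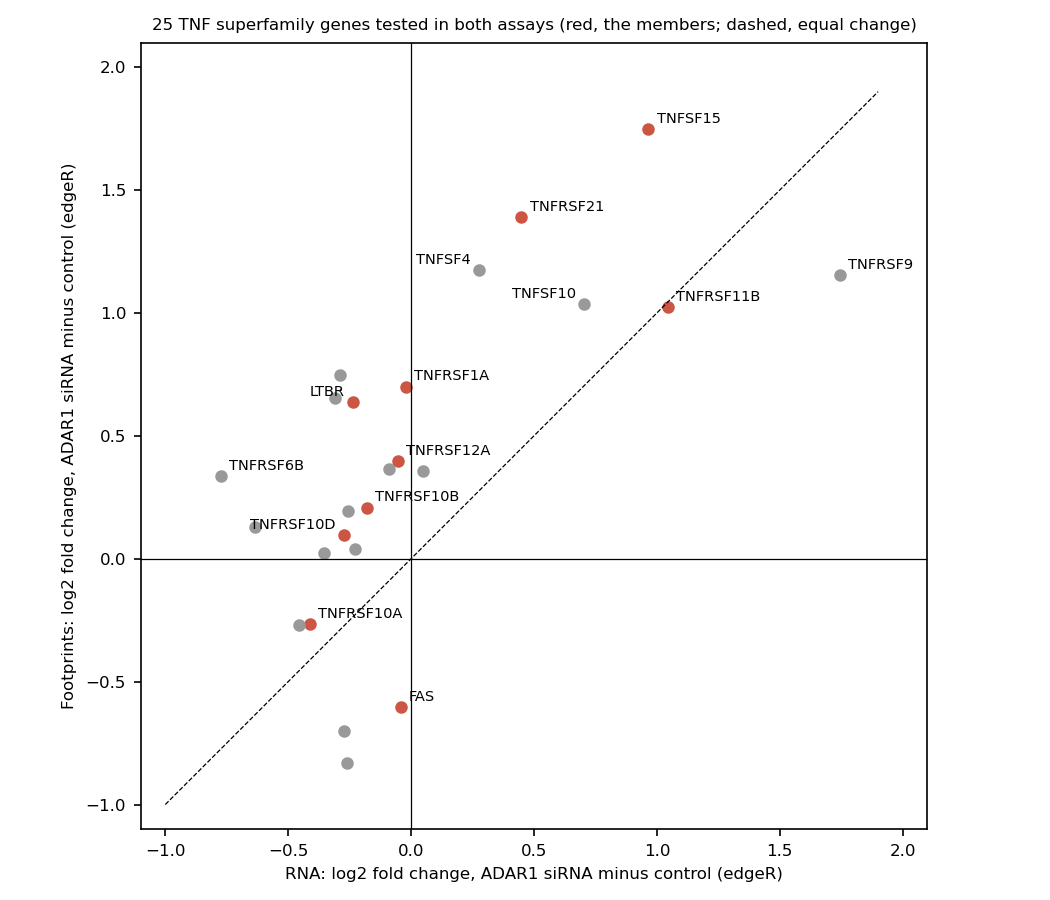
Footprint against RNA log2 fold change (ADAR1 siRNA minus control siRNA, edgeR estimates) for 25 superfamily genes tested in both assays, with the members in red and a dashed line of equal change. LTB is left out because its control Input libraries held 1 and 0 counts, and it would lie below the dashed line. The 25 include TNFSF15 and TNFRSF21, chosen for their rise. They also include TNFSF4, TNFRSF6B, TNFSF13 and TNFSF13B, which reached the footprint count minimum in a single group. As a description, 20 of the 25 lie above the line. Of all genes tested, 57.3% had a translational efficiency change above 0.

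Genes that act below or beside the receptors were taken from 4 lists. Among 13 tested death-domain adaptors, caspases and their inhibitors, 1 was called in RNA (background 0.253%) and 1 in footprints (background 3.54%). The cellular inhibitor of apoptosis BIRC2, a ubiquitin ligase of the TNFRSF1A complex, rose in RNA, and its relative BIRC3 rose in footprints. The other 11 did not pass in either assay. BIRC2 Input libraries held 175 and 176 TPM with control siRNA and 266 and 251 TPM with ADAR1 siRNA (log2 fold change 0.51 ± 0.06, edgeR adjusted p = 0.0488; 0.494 without control replicate 1 and 0.523 without replicate 2). Its footprint value was 0.71 ± 0.18 (edgeR adjusted p = 0.0555; 0.0234 by DESeq2). BIRC3 footprints were 3.40 and 3.54 TPM against 9.47 and 5.70 TPM (1.29 ± 0.30, edgeR adjusted p = 0.0490; 0.0501 without control Ribo-seq replicate 2; 0.78 without ADAR1 siRNA replicate 1). In RNA BIRC3 stood at 41.8 and 43.1 TPM against 134 and 52.5 TPM, high in ADAR1 siRNA replicate 1, and did not pass (1.10 ± 0.36, edgeR adjusted p = 0.137). Its RNA value was 0.33 without that library and 1.60 without replicate 2.

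Among 8 genes of ubiquitin editing at the TNF receptor complex, TNIP1, a partner of the deubiquitinase A20, rose in footprints, from 27.1 and 28.7 TPM to 41.0 and 42.6 TPM (0.68 ± 0.15, edgeR adjusted p = 0.0441; 0.260 without control Ribo-seq replicate 1 and 0.412 without replicate 2). TNIP1 was the only 1 of the 8 called in footprints (background 3.54%). None of the 8 passed in RNA by edgeR (background 0.253%), and 5 had an unadjusted p under 0.05 (background 25.3%). None of 9 IKK and NF-kB kinase genes passed by edgeR in RNA, where 4 had an unadjusted p under 0.05 (background 25.3%), or in footprints, where 2 did (background 24.0%). The adaptor TAB2 had a log2 fold change of 0.28 ± 0.07 in RNA and 0.66 ± 0.29 in footprints, and the kinase TBK1 of 0.21 ± 0.10 and 0.32 ± 0.23.

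Of 7 genes of ligand and receptor shedding, the metalloprotease ADAM10 rose in footprints, from 53.7 and 50.9 TPM to 81.7 and 81.9 TPM (0.71 ± 0.15, edgeR adjusted p = 0.0422; 0.156 without control Ribo-seq replicate 1 and 0.475 without replicate 2). ADAM10 was the only 1 of the 7 called in footprints (background 3.54%). All 7 had a footprint and a translational efficiency value above 0, where 54.4% and 57.3% of all genes tested did. Their medians were 0.53 and 0.54, against 0.05 and 0.09 over all genes tested. In translational efficiency none of the 7 passed by edgeR, and all 7 had an unadjusted p under 0.05, where the background was 22.7%. ADAM17, the protease that sheds TNF, had a footprint log2 fold change of 0.53 ± 0.15 (edgeR adjusted p = 0.0675); it is named outside the rule, after its value was seen.

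Genes whose pattern over the 8 libraries was most like that of TNFSF15 and TNFRSF21 were searched among 9733 genes, on log2 CPM centred within each assay. For TNFSF15 they were FBXW7, a ubiquitin ligase subunit (Pearson r = 0.990), TNFSF10 (0.987) and CTSH, a lysosomal protease (0.986). For TNFRSF21 they were B2M, the light chain of class I HLA (0.995), CPA4, a carboxypeptidase (0.994), and MGAT2, a Golgi glycosyltransferase (0.994). The 8 points share 2 siRNA groups and their libraries, so these values are a description.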

How the data were processed

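RNA-seq (Input) and Ribo-seq libraries of MDA-MB-231 cells were made from gel-selected RNA, shorter for Ribo-seq than for Input, after lysates were run on sucrose gradients, per the labels' protocols. Build GRCh38 (hg38) and the tools STAR, featureCounts, Bowtie2 and cutadapt are listed in the submitters' processing notes, without versions, settings or roles. The authors deposited an estimated count per gene without normalization, TPM, and a translational efficiency ratio; at least 99.99% of the ratios in each library equalled Ribo-seq TPM over Input TPM of the same replicate number. Gene numbers were paired with RefSeq symbols (19669 of 19892 matched).

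Estimated counts, as deposited, were rounded and tested with edgeR 4.0.16 in R 4.3.3: TMM scaling, filterByExpr, quasi-likelihood tests, Benjamini-Hochberg adjustment over all genes, threshold 0.05, two-sided. RNA and footprints were fitted over 4 libraries each and translational efficiency as an interaction over 8. SEs were taken as the size of the log2 fold change over the root of edgeR's F. DESeq2 1.42.0, RLE scaling, no filter, replicate blocks, leaving out each library, and CPM in place of TPM were tried. The fits were tested on simulated counts. Depth limits the low genes: FAS, TNFSF15 and TNFRSF11B had at most 472 counts per library. No molecular identifiers are mentioned. Members and gene lists were chosen with earlier results of these data known. Besides the members, the text names every other list gene called in any comparison and, for a list with no call, the 2 most abundant by control Input TPM; genes outside this rule were named after their values were seen: ADAM17, TNFRSF25, TNFRSF10C, LTB and the others left out of the footprint count in the results and others where they appear.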

Additional observations from a re-analysis of the deposited data

How the results depend on the processing

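The counts here include TNFSF15 and TNFRSF21, chosen for their rise. They also include, where called, TNFSF18 and LTB, which in the main fits passed the filter through the ADAR1 siRNA libraries alone. By edgeR 1 superfamily gene was called in RNA, 5 in footprints and 0 in translational efficiency. RLE scaling gave the same 3 counts. DESeq2 gave 2, 5 and 3, and no filter on low counts gave 2, 8 and 3. DESeq2 gave TNFSF18, BIRC3, FAS and TNFRSF11B no adjusted p in footprints. Its 5 footprint calls hold LTBR and not TNFSF18. Leaving out each library gave 0 to 14 in RNA (0 without either control Input library, 11 without ADAR1 siRNA Input replicate 1, 14 without replicate 2), 4 to 11 in footprints (4 without either control Ribo-seq library, 8 without ADAR1 siRNA replicate 1, 11 without replicate 2) and 0 to 6 in translational efficiency (3 without ADAR1 siRNA Ribo-seq replicate 1, 6 without replicate 2). In these fits the lone library is assumed to vary like the other group, and the control libraries vary less. Wherever leaving out a library raised the superfamily count above that of the main fit, the calls over all genes rose too. A response particular to the family can therefore not be read from these counts. Over all genes the calls of the main fits were 32 in RNA (443 by DESeq2, 95 with no filter), 425 in footprints (964, 1693) and 6 in translational efficiency (997, 854).

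Pairing was examined on each gene's deviation in log2 CPM from its group mean, over 10316 genes. Between same-numbered control and ADAR1 siRNA libraries these deviations correlated at 0.04 in Input and 0.11 in Ribo-seq. With 2 libraries a group, such a value cannot show whether the numbers mark a shared batch. Between same-numbered Input and Ribo-seq libraries the deviations correlated at 0.01 with control siRNA and 0.41 with ADAR1 siRNA. The labels do not say that these libraries share a culture. With a replicate block within each assay the superfamily calls were 5, 7 and 3, and those over all genes 1095, 2102 and 715; in translational efficiency LTBR (adjusted p = 0.0240), TNFRSF1A (0.0412) and TNFRSF21 were called, and in footprints LTBR and TNFRSF11B were added. A block tying same-numbered Input and Ribo-seq libraries, chosen after seeing the data, called 4 in translational efficiency (LTBR at 0.0134, TNFRSF1A at 0.0207, TNFRSF21 and TNFRSF11A) and 1169 over all genes by edgeR. TNFSF15 and TNFRSF21, chosen for their rise, are in these counts where called, and their calls are no test.

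Some values changed sign when a library was left out. In RNA these were FAS (-0.24 to 0.13), TNFRSF12A (-0.12 to 0.017), TNFRSF1A (-0.073 to 0.028) and TNIP1 (-0.049 to 0.31). In footprints they were TNFRSF10A (-0.74 to 0.048) and TNFRSF11B (-0.027 to 1.60). In translational efficiency they were TNFRSF11B (-0.99 to 0.57), TNFRSF10A (-0.32 to 0.55) and BIRC3 (-0.35 to 0.90). With CPM in place of TPM the footprint ratio of TNFRSF10D turned to 0.10 on the log2 scale. The causes were not tested. At 2 libraries a group and the counts of FAS, TNFRSF11B and TNFSF18, differences in these genes were poorly resolved.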

Other observations

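The superfamily genes given here were chosen after their values were seen. CD27, a costimulatory receptor of lymphocytes, had 132 and 101 footprint counts with control siRNA and 224 and 177 with ADAR1 siRNA, but 0 counts in 3 Input libraries and 1 in the other. The annotation places CD27-AS1 and TAPBPL over CD27, and the labels do not state whether counting used strand. TNFSF12, the ligand TWEAK that binds TNFRSF12A, showed the opposite, at 24.1 and 19.9 TPM in control Input and 10.3 and 19.2 TPM with ADAR1 siRNA Input, with at most 5.96 footprint counts in any library. CD40, a receptor best known from antigen-presenting cells, stood at 22.0 and 24.3 TPM in control Input and at 42.9 and 42.5 TPM in control footprints, with 49.5 and 51.0 TPM in ADAR1 siRNA footprints.

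LTB, which encodes lymphotoxin beta, a ligand of LTBR, had 1 and 0 Input counts with control siRNA and 20 and 14 with ADAR1 siRNA, and 3 and 4 against 14 and 16 footprint counts. LTB passed the filter in both assays through the ADAR1 siRNA libraries alone, so its counts are given as a description. TNFRSF9, the receptor 4-1BB, had 11 and 17 Input counts with control siRNA and 72 and 24 with ADAR1 siRNA, and did not pass (log2 fold change 1.74 ± 0.60 in RNA, edgeR adjusted p = 0.148).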
